A study of Mus musculus with 15 samples.

Results

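A set of 33 genes of the endoplasmic reticulum (ER) was followed in the mouse macrophage cell line RAW 264.7 upon saturation with silica nanoparticles (SNPs). The genes were chosen by name from those of ER folding, of the unfolded protein response and of ER-associated degradation (ERAD). The count table lists 57186 genes and holds all 33, and 32 of them were among the 19839 genes tested. Derl3, a Derlin of the ERAD channel, had 0 counts in all 15 libraries.

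RAW 264.7 is a virus-transformed line with macrophage properties, so all libraries come from one line and not from separate animals. The cells were left nontreated (Control) or were given 50 µg/mL of SNP100, nonporous spheres of 100 nm nominal diameter, 25 µg/mL of SNP50, nonporous spheres of 50 nm, 200 µg/mL of MSNP, mesoporous particles of 100 nm, or 200 µg/mL of HMSNP, hollow mesoporous particles of 100 nm. RNA was taken after 6 h from 3 replicates of every group, 15 libraries in all. The study gave each particle at its highest nontoxic dose, so particle type and dose cannot be told apart except between MSNP and HMSNP. Each group carries its own number prefix in the labels, and what this prefix stands for is not stated. Any batch that follows the prefix cannot be told apart from treatment. The labels do not say whether the replicates were separate cultures. The p-values therefore measure the spread between these libraries, pooled over the 5 groups, which may be technical.

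Proteins that enter the ER are folded by chaperones and joined by disulfide bonds, and those that fail to fold are passed back to the cytosol and degraded, which is the task of ERAD. When unfolded protein collects, the sensors IRE1 (Ern1), PERK (Eif2ak3) and ATF6 raise the transcription of chaperone and ERAD genes through XBP1, ATF4 and ATF6. PERK acts by phosphorylation of eIF2α, which favours translation of ATF4, and the kinases GCN2, PKR and HRI phosphorylate eIF2α outside the ER, so that ATF4 and its target CHOP (Ddit3) can also be induced without the ER arm.

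Many of these genes carry the ER stress response element, which ATF6 and XBP1 are known to use together with NF-Y. The ERSE, taken as CCAAT, any 9 bases and CCACG, was searched on both strands in the 250 bases before the start of the canonical transcript, in GRCm39 with GENCODE vM39, and was found in 10 of the 33 promoters (30.3%) against 25 of all 21757 protein-coding promoters (0.115%). The ERSE-II, taken as ATTGG, any 1 base and CCACG, was found in 3 of the 33 (9.09%) and in 12 of all promoters (0.0552%). The 2 sets did not overlap, and together they held 13 of the ER genes. The letters TGATGNAAN (CARE), a form bound by ATF4 and its partners, were found in 1 of the 33 promoters (3.03%), against 3.37% of all promoters, and those of the XBP1 element, TGACGTGG (UPRE), in 1 (3.03%) against 0.561%. The sequences below are shown because they hold the elements of the chaperone and ERAD genes whose levels are described next, with the element in capitals and the rest of the window in lower case. All are written 5′ to 3′ on the strand of the gene. A match describes letters in the window and is not a measured binding site.
Hspa5, chr2:34662004-34662075, plus strand, ERSE: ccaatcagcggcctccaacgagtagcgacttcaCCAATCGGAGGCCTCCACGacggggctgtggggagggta
Hsp90b1, chr10:86541379-86541433, minus strand, ERSE on the other strand: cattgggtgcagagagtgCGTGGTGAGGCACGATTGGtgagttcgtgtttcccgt
Calr, chr8:85573688-85573737, minus strand, ERSE on the other strand: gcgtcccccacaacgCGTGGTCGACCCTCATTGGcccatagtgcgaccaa
Dnajc3, chr14:119175224-119175273, plus strand, ERSE: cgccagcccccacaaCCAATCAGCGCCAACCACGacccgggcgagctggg
Creld2, chr15:88703708-88703757, plus strand, ERSE on the other strand: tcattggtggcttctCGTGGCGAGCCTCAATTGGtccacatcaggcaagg
Herpud1, chr8:95112990-95113031, plus strand, ERSE-II: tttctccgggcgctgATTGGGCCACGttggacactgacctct
Hyou1, chr9:44290646-44290687, plus strand, ERSE-II on the other strand: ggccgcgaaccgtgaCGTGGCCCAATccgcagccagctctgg

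The libraries held between 29369934 and 42617812 counts. All 9 macrophage markers of a fixed list had counts in every group, and those of fibroblasts, lymphocytes and epithelium summed to at most 0.0869 CPM in any library. The summed macrophage markers were 12874 to 13645 CPM of the library total in the MSNP-treated libraries against 16053 to 19722 CPM in the others, and the part of this shift in the results below was not tested. With MSNP 6 of the 9 were called lower, Adgre1 and Spi1 were not called, and Cd68 was called higher (log2 fold change of 0.68, adjusted p = 1.02e-06). In bulk RNA, fewer cells with a transcript and less of it per cell cannot be told apart. Control replicate 3 stood apart from the other libraries, and it moves many of the values below. Control replicates 1 and 2 also differed. The mean chi-square per gene between their counts was 73.07, against at most 15.25 between replicates of a treated group. With Control replicate 3 it was 191.6 and 225.6. The share of all genes called with HMSNP was 5.16%, 25.2% without Control replicate 2 and 8.66% without Control replicate 3. For MSNP these were 22.8%, 33.2% and 29.5%. Over the 32 ER genes, the median SD of log2 CPM between replicates was 0.18 in the controls and 0.04 in each treated group. The model pools the spread of a gene over all groups. SEs, intervals and p-values against Control can therefore understate the spread of the controls. Those between treated groups can overstate the spread of these groups. The difference of Control replicate 3 from the mean of the other controls ran with transcript length over the 32 genes (Pearson r of -0.78 with log2 length and Spearman rho of -0.73, a description of one library over genes that share it). It was the highest control for 17 genes, with Fkbp2 (0.98 on the log2 scale) and Sdf2l1 (0.91) at the top, and the lowest for 12, with Ern1 (-0.96), Atf6 (-0.78) and Sel1l (-0.76) at the bottom.

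**Figure D1:**
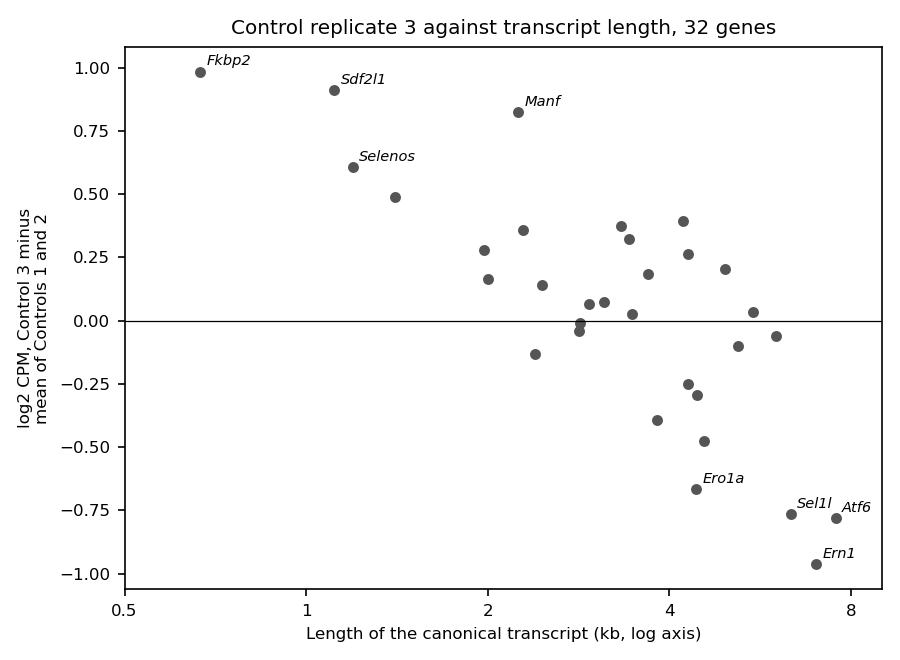
Each point is one of the 32 tested ER genes, with the length of its canonical transcript on the x axis (kb, log axis) and the log2 CPM of Control replicate 3 minus the mean of Control replicates 1 and 2 on the y axis. Short transcripts such as Fkbp2 (0.98) lie above 0 and long ones such as Ern1 (-0.96) below it.

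In the nontreated cells, the ER genes spanned a wide range of levels. Per kb of canonical transcript, Calr stood highest at 642 CPM per kb, followed by Hsp90b1 (452), P4hb (376), Hspa5 (276) and Pdia3 (270.0). The sensor genes Ern1 (2.82) and Eif2ak3 (5.88) were the lowest, followed by the ER J-domain protein gene Dnajb9 at 7.46 and Ero1b at 7.65, while Atf6 lay higher at 27.2 and Xbp1 at 122 CPM per kb. Hspa5 and Pdia3 stood next to each other in this order, and their levels did not differ beyond the spread of the controls.

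The question of the comparisons with Control was which of these genes changed upon each treatment. The MSNP-treated group had 18 of the 32 tested genes higher and 0 lower by edgeR's quasi-likelihood test at an adjusted p under 0.05, where 11.8% of all 19839 tested genes were called higher and 11.0% lower. Of genes with a mean of at least 10 CPM, a range that holds all 32, 19.6% were called higher. In the HMSNP-treated group 7 of the 32 were higher and 0 lower, against 2.46% of all genes called higher and 2.7% lower, and 4.19% called higher among genes with at least 10 CPM. None of the 32 was called in the SNP100-treated group (0.912% of all genes called in either direction) or in the SNP50-treated group (1.41%). The median log2 fold change over the 32 genes was 0.25 in the MSNP-treated, 0.12 in the HMSNP-treated, 0.01 in the SNP100-treated and 0.05 in the SNP50-treated group, where the medians of all tested genes were -0.05, -0.04, -0.02 and -0.00. These comparisons share the 3 control libraries.

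Counted by the libraries themselves, every MSNP library was above every control for 19 of the 32 genes and below for 2, against 17.0% and 16.2% of all tested genes. For HMSNP these were 12 and 4 (10.9% and 12.0% of all genes), for SNP100 3 and 2 (5.34% and 7.19%) and for SNP50 3 and 2 (6.26% and 7.87%). Every HMSNP library was below every MSNP library for 17 genes (23.7% of all) and above for 3 (21.6%). Every MSNP library was above every SNP100 library for 25 genes (22.8%) and below for 0 (22.7%).

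**Figure D2:**
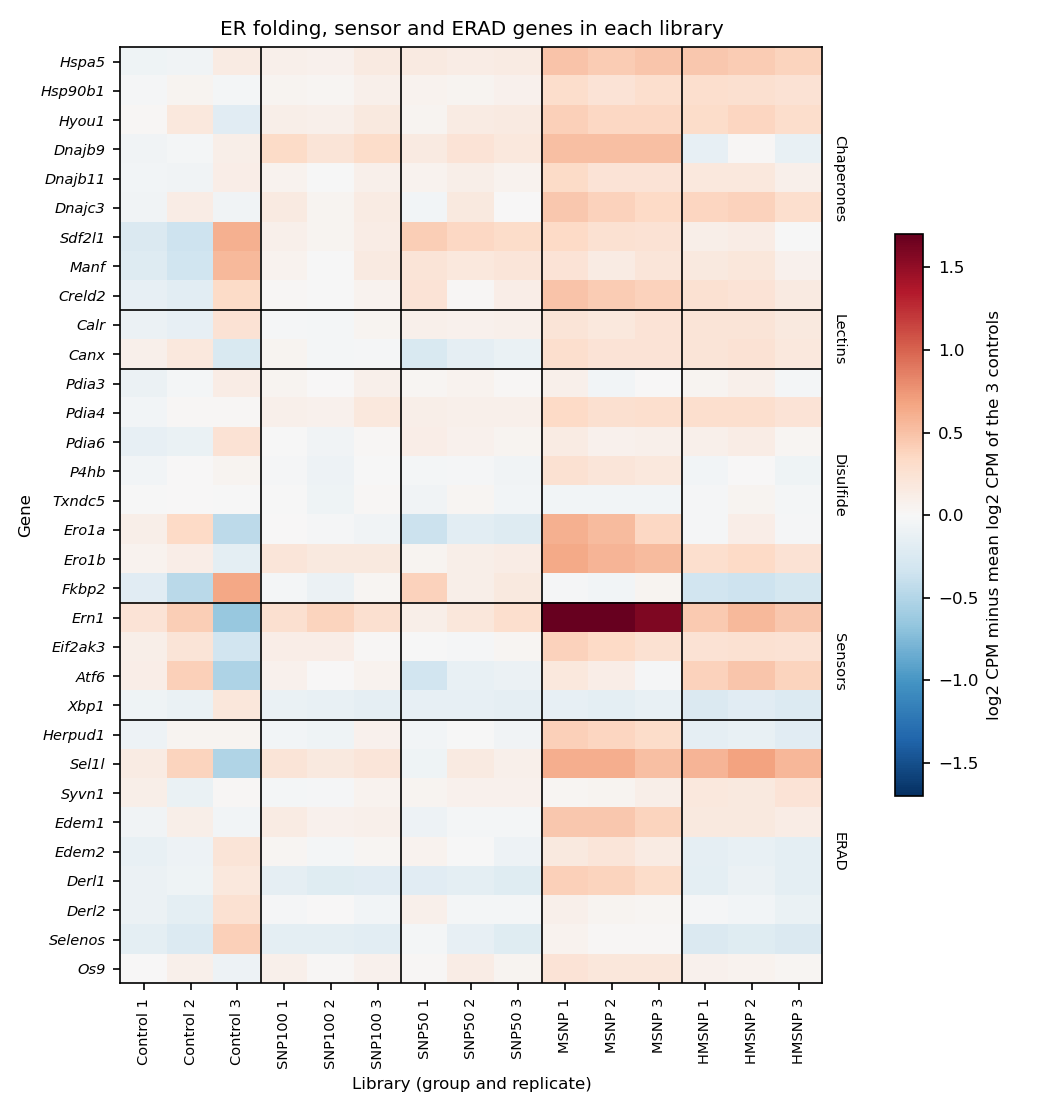
Rows are the 32 tested ER genes in the order of their roles, columns are the 15 libraries, and the colour is log2 CPM minus the mean log2 CPM of the 3 controls. The MSNP columns are red for most chaperone and ERAD genes and darkest for Ern1, the HMSNP columns are red for fewer genes, and Control 3 departs from Controls 1 and 2 in both directions.

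The chaperones of the HSP70 and HSP90 systems held 7 of the 18 genes that rose with MSNP and 4 of the 7 that rose with HMSNP. They were 9 genes in all, with medians of 0.36 and 0.20 on the log2 scale. Hspa5, on chr2:34661982-34668880, encodes BiP, the main HSP70 of the ER and the regulator of the sensors. Its normalised level was 1298, 1307 and 1502 CPM in the controls, 1453, 1442 and 1517 with SNP100, 1515, 1492 and 1499 with SNP50, 1904, 1837 and 1886 with MSNP and 1875, 1836 and 1770 with HMSNP. Every MSNP and HMSNP library lay above every control, while the SNP100 and SNP50 libraries overlapped with Control replicate 3. Hspa5 rose 1.37-fold with MSNP (log2 fold change 0.45 ± 0.06 SE, adjusted p = 5.03e-05) and 1.34-fold with HMSNP (0.42 ± 0.06 SE, adjusted p = 0.000988). It differed between HMSNP and MSNP by -0.04 ± 0.06 (SE, adjusted p = 0.766), with a 95% interval of -0.17 to 0.09. The annotation of Hspa5 overlaps that of Rabepk on the other strand, which held 8739 counts against 853068, and the strand setting of the counting was not given in the sources used here.

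Hsp90b1 encodes GRP94, the HSP90 of the ER. It read 1262, 1318 and 1254 CPM in the controls, 1316, 1302 and 1351 with SNP100, 1330, 1324 and 1339 with SNP50, 1566, 1502 and 1554 with MSNP and 1559, 1541 and 1509 with HMSNP. The 6 libraries of the porous particles stood above all the others. The log2 fold change was 0.27 ± 0.05 (SE, adjusted p = 0.00083) with MSNP and 0.27 ± 0.05 (SE, adjusted p = 0.00527) with HMSNP. Hyou1, the large HSP70 relative that exchanges the nucleotide of BiP, read 427, 476 and 368 CPM in the controls, 449.9, 446 and 475 with SNP100, 434, 466 and 468 with SNP50, 556, 538 and 537 with MSNP and 524, 545 and 517 with HMSNP. Its porous-particle libraries also lay above every control, and it rose by 0.36 ± 0.08 (SE, adjusted p = 0.00332) with MSNP and by 0.32 ± 0.08 (SE, adjusted p = 0.0305) with HMSNP. Dnajc3, the P58IPK cochaperone of BiP, read 97.2, 110.1 and 96.5 CPM in the controls, 112, 105 and 111 with SNP100, 97.8, 113 and 101 with SNP50, 139, 133 and 127 with MSNP and 131, 133 and 123 with HMSNP. It rose by 0.39 ± 0.07 (SE, adjusted p = 0.00106) and 0.35 ± 0.07 (SE, adjusted p = 0.0135) in the same order, with no overlap with the controls.

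The other J-domain genes did not share this pattern. Dnajb9 encodes ERdj4, which brings BiP to IRE1 and to ERAD clients, and lies on chr12:44252341-44257171. Its level was 17.6, 17.9 and 19.6 CPM in the controls, 22.9, 21.4 and 22.8 with SNP100, 20.3, 21.6 and 20.7 with SNP50, 26.1, 26.2 and 26.2 with MSNP and 16.6, 18.6 and 16.7 with HMSNP. The MSNP libraries were the highest, the SNP100 and SNP50 libraries lay between them and the controls without overlap with either, and the HMSNP libraries overlapped with the controls. Dnajb9 rose with MSNP (0.51 ± 0.07 SE, adjusted p = 5.66e-05), its difference with HMSNP was -0.09 ± 0.07 (SE, adjusted p = 0.467), and it was lower in HMSNP than in MSNP (-0.60 ± 0.07 SE, adjusted p = 1.27e-05). With SNP100 its value was 0.29 ± 0.07 (SE, adjusted p = 0.0807), the smallest adjusted p of the set in that group, and it passed the threshold with DESeq2, with the filterByExpr filter and without Control replicate 3. Dnajb11, the ERdj3 cochaperone, read 208, 205 and 231 CPM in the controls, 223, 213 and 227 with SNP100, 223, 229 and 223 with SNP50, 267, 250.3 and 250.4 with MSNP and 242, 242 and 228 with HMSNP. The MSNP libraries lay above the controls and the HMSNP libraries overlapped with them, and the gene rose by 0.26 ± 0.06 (SE, adjusted p = 0.00713) with MSNP only among the 4 comparisons with Control, while HMSNP and MSNP differed by -0.11 ± 0.06 (SE, adjusted p = 0.265).

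Creld2, a secreted ER stress protein with disulfide isomerase activity, read 82.0, 80.0 and 114 CPM in the controls, 91.7, 90.3 and 94.8 with SNP100, 107, 92.2 and 98.1 with SNP50, 127, 122 and 119 with MSNP and 108, 107 and 101 with HMSNP. It rose with MSNP by 0.42 ± 0.11 (SE, adjusted p = 0.0114), all MSNP libraries being above Control replicate 3. The remaining chaperone cofactors, Sdf2l1, a partner of the ERdj3 complex, and Manf, a secreted cofactor of BiP, were not called in any of the 6 comparisons. Both read highest in Control replicate 3 of all libraries, Sdf2l1 at 183 CPM against 101 and 93.7 in the other controls and Manf at 274 against 161 and 149 CPM. Without that library both were called higher in all 4 treated groups, with log2 fold changes of 0.59 (adjusted p = 1.19e-07) and 0.47 (adjusted p = 2.34e-06) for MSNP. Manf shares exon bases with Rbm15b on the same strand and with Dcaf1 on the other, so its counts are uncertain.

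The lectin chaperones calreticulin (Calr) and calnexin (Canx), which hold newly made glycoproteins, were not called. Calr differed by 0.20 ± 0.08 (SE, adjusted p = 0.0964) with MSNP and 0.19 ± 0.08 (SE, adjusted p = 0.173) with HMSNP, and Canx by 0.24 ± 0.09 (SE, adjusted p = 0.0648) and 0.20 ± 0.09 (SE, adjusted p = 0.182). All MSNP and HMSNP libraries were above all controls for Canx, and Calr overlapped through Control replicate 3, at 1722 CPM. Without Control replicate 3, Calr was called higher in the SNP50-, MSNP- and HMSNP-treated groups.

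Among the 8 disulfide and prolyl isomerase genes, 4 rose with MSNP and 2 with HMSNP. With MSNP the oxidases that recharge protein disulfide isomerase had the largest values of the 8. Ero1b read 33.9, 35.4 and 29.1 CPM in the controls, 37.7, 36.7 and 36.7 with SNP100, 33.6, 35.1 and 35.6 with SNP50, 51.2, 49.0 and 47.4 with MSNP and 39.9, 41.3 and 38.7 with HMSNP. It was highest with MSNP and intermediate with HMSNP, both without overlap with the controls, and the log2 fold changes were 0.58 ± 0.07 (SE, adjusted p = 2.42e-05) and 0.29 ± 0.07 (SE, adjusted p = 0.0377). Ero1b was lower in HMSNP than in MSNP, at -0.30 ± 0.07 (SE, adjusted p = 0.00807). Ero1a, the form also known to respond to hypoxia, read 122, 144 and 83.3 CPM in the controls, 114, 112 and 109 with SNP100, 87.6, 99.9 and 97.1 with SNP50, 172, 164 and 145 with MSNP and 112, 122 and 112 with HMSNP. Only the MSNP libraries stood above the controls, whose own values spread from 83.3 to 144 CPM, and Ero1a rose by 0.46 ± 0.14 (SE, adjusted p = 0.0272) with MSNP and was lower in HMSNP than in MSNP (-0.47 ± 0.14 SE, adjusted p = 0.0271).

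Of the isomerases themselves, Pdia4 (ERp72) and P4hb (the classical protein disulfide isomerase) rose. Pdia4 read 152, 159.7 and 159.6 CPM in the controls, 167, 165 and 177 with SNP100, 168, 168 and 166 with SNP50, 198, 190.5 and 192 with MSNP and 191, 191 and 184 with HMSNP. It rose by 0.30 ± 0.05 (SE, adjusted p = 0.000745) with MSNP and 0.26 ± 0.05 (SE, adjusted p = 0.0105) with HMSNP, the porous-particle libraries being above all others. With an offset that takes out the transcript-length trend of the libraries these became 0.12 and 0.07 and were not called (adjusted p = 0.378 and 0.676). With the same offset without Control replicate 3 both were called higher. P4hb read 1071, 1109 and 1140 CPM in the controls, 1096, 1046 and 1102 with SNP100, 1079, 1086 and 1063 with SNP50, 1323, 1279 and 1255 with MSNP and 1073, 1114 and 1051 with HMSNP. It rose with MSNP (0.22 ± 0.05 SE, adjusted p = 0.00735), its HMSNP libraries overlapped with the controls, and it was lower in HMSNP than in MSNP, at -0.25 ± 0.05 (SE, adjusted p = 0.00256). Pdia3 and Pdia6, 2 further isomerases, Txndc5 and the prolyl isomerase gene Fkbp2 were not called in any of the 6 comparisons. Pdia3 and Txndc5 stayed within a fitted difference of 0.05 in either direction in all 4 comparisons with Control, at 929 to 1080 CPM and 266 to 291 CPM over the 15 libraries. Fkbp2 changed sign with the processing, from -0.09 with MSNP to 0.32 (adjusted p = 0.00419) without Control replicate 3, and it shares exon bases with Ppp1r14b on the other strand, which holds more counts (126600 against 30200).

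The sensor genes showed the largest single difference of the set. Ern1, on chr11:106283818-106378686, encodes IRE1α, the kinase and nuclease that splices Xbp1 mRNA. Its level was 22.0, 25.1 and 12.0 CPM in the controls, 22.8, 24.5 and 22.7 with SNP100, 20.2, 21.5 and 23.0 with SNP50, 60.8, 64.0 and 56.6 with MSNP and 25.7, 27.6 and 25.9 with HMSNP. Each MSNP library stood far above every library of the other groups, and the HMSNP libraries lay just above the highest control. Ern1 rose 3.07-fold with MSNP (log2 fold change 1.62 ± 0.18 SE, adjusted p = 6.98e-06), its difference with HMSNP was 0.42 ± 0.18 (SE, adjusted p = 0.172), and HMSNP was lower than MSNP, at -1.20 ± 0.18 (SE, adjusted p = 0.000132). The MSNP call held in all 23 alternatives tried, with a value of 1.37 without Control replicate 3, the lowest control for this gene. Eif2ak3, the gene of PERK, read 28.3, 30.9 and 21.2 CPM in the controls, 28.6, 28.7 and 26.8 with SNP100, 26.3, 26.1 and 27.1 with SNP50, 34.7, 33.4 and 31.7 with MSNP and 31.5, 31.7 and 31.5 with HMSNP. The MSNP and HMSNP libraries were above every control, and Eif2ak3 was called with MSNP at 0.31 ± 0.10 (SE, adjusted p = 0.041), a call kept in 10 of 23 alternatives.

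Atf6 and Xbp1 were not called in any of the 6 comparisons. Atf6 read 214, 263 and 138 CPM in the controls, 224, 214 and 194 with MSNP and 260.2, 273 and 257 with HMSNP, so that its controls spanned most of the values of the treated groups. Its difference was 0.04 ± 0.16 (SE, adjusted p = 0.88) with MSNP and 0.36 ± 0.16 (SE, adjusted p = 0.18) with HMSNP, and the MSNP value turned to -0.14 (adjusted p = 0.0426) with the length offset. Xbp1 lay slightly under the controls in every treated library, at 202 to 221 CPM against 221 to 272 CPM, with log2 fold changes from -0.23 with HMSNP (adjusted p = 0.0778) to -0.14 with SNP100. The HMSNP value was called lower in 5 of 23 alternatives, with DESeq2 (-0.21, adjusted p = 0.00908) and without Control replicate 2 (-0.27, adjusted p = 0.0146) among them. Xbp1 overlaps Ccdc117 on the other strand. Gene counts give neither the share of spliced Xbp1 mRNA nor the processing of ATF6 or the phosphorylation of IRE1 and PERK.

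**Figure D3:**
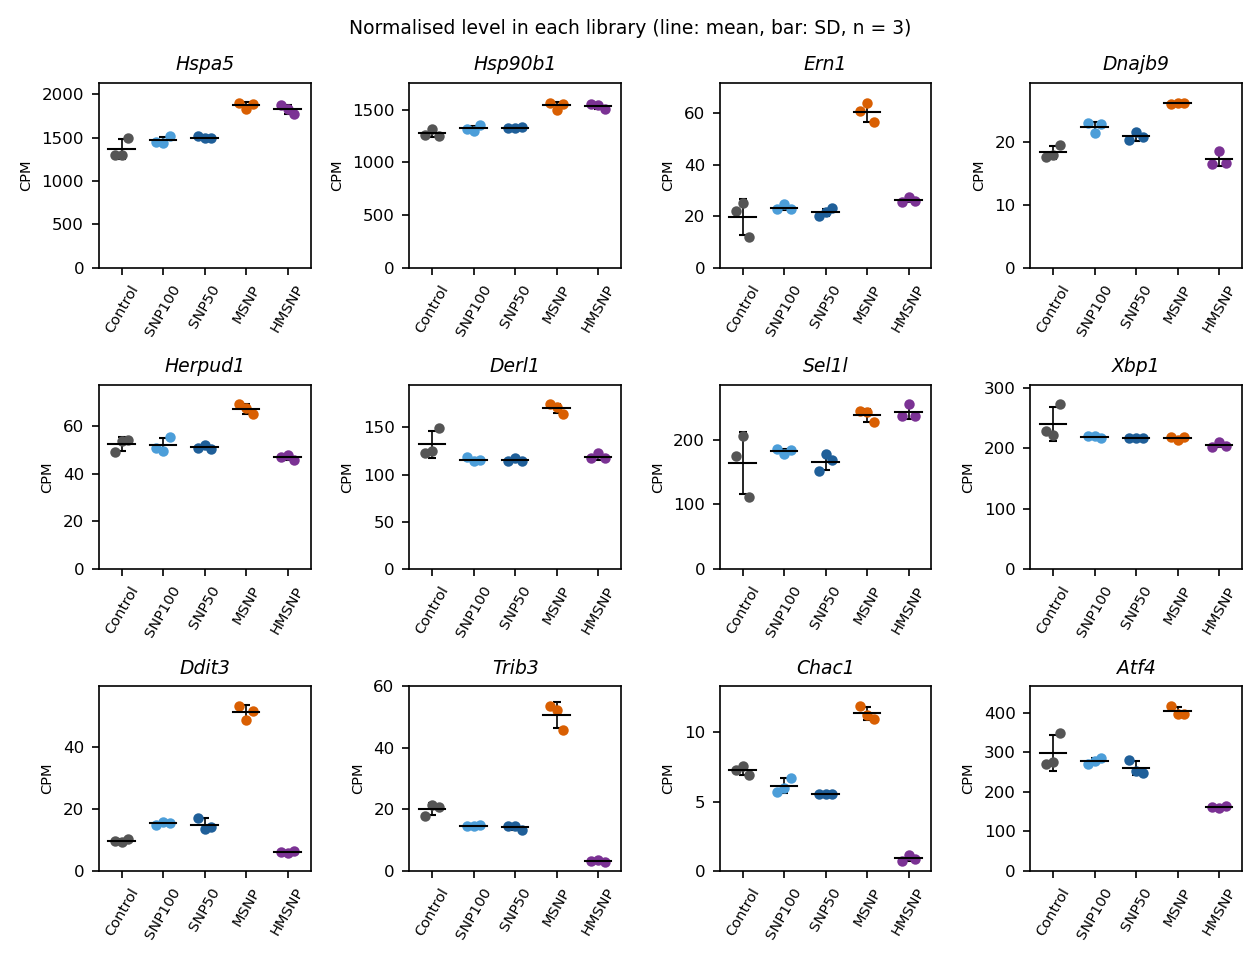
Each panel shows 1 gene, with CPM on a y axis from 0 and the 5 groups on the x axis, points for the 3 libraries, a line for the mean and a bar for the SD. Hspa5, Hsp90b1 and Sel1l are high with both porous particles, Ern1, Dnajb9, Herpud1 and Derl1 are highest with MSNP, and Ddit3, Trib3, Chac1 and Atf4 are highest with MSNP and lowest with HMSNP.

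Of the 9 tested ERAD genes, 5 rose with MSNP and 1 with HMSNP. Sel1l, on chr12:91772799-91815982, encodes the scaffold of the HRD1 ligase and was the one called with both. Its level was 175, 206 and 112 CPM in the controls, 186, 178 and 184 with SNP100, 151, 177 and 169 with SNP50, 244, 243 and 226 with MSNP and 237, 255 and 236 with HMSNP. The porous-particle libraries were all above the controls, which spread from 112 to 206 CPM. Sel1l rose by 0.53 ± 0.15 (SE, adjusted p = 0.0181) with MSNP and 0.56 ± 0.15 (SE, adjusted p = 0.045) with HMSNP, and the latter call was kept in 8 of 23 alternatives. Syvn1, the HRD1 ligase itself, was at 53.9 to 68.5 CPM in all libraries and was not called, with 0.06 ± 0.06 (SE, adjusted p = 0.579) and 0.19 ± 0.06 (SE, adjusted p = 0.0984). It overlaps Mrpl49 on the other strand.

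The other ERAD genes that rose with MSNP had no call with HMSNP. Herpud1, which assembles the HRD1 complex, read 49.1, 53.8 and 54.0 CPM in the controls, 50.7, 49.6 and 55.2 with SNP100, 50.8, 51.9 and 50.3 with SNP50, 69.0, 67.5 and 64.8 with MSNP and 46.9, 47.7 and 45.8 with HMSNP. The MSNP libraries were the highest and the HMSNP libraries lay below every control. It rose by 0.36 ± 0.06 (SE, adjusted p = 0.000641) with MSNP, differed by -0.16 ± 0.06 (SE, adjusted p = 0.152) with HMSNP and was lower in HMSNP than in MSNP, at -0.52 ± 0.06 (SE, adjusted p = 2.1e-05). Derl1, of the retrotranslocation channel, read 123, 125 and 149 CPM in the controls, 118, 115 and 115 with SNP100, 115, 118 and 114 with SNP50, 175, 171 and 164 with MSNP and 117, 123 and 117 with HMSNP. Its order was the same as that of Herpud1 among the porous particles, with the nonporous groups also below the controls. The log2 fold change was 0.36 ± 0.07 (SE, adjusted p = 0.00142) with MSNP, -0.15 ± 0.07 (SE, adjusted p = 0.206) with HMSNP and -0.51 ± 0.07 (SE, adjusted p = 6.46e-05) between them. The MSNP call was kept in 21 of 23 alternatives, and was lost with the length offset (0.25, adjusted p = 0.065) and in the 6 libraries alone (0.36, adjusted p = 0.0712).

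Edem1, which trims mannose from misfolded glycoproteins, read 374, 420.2 and 380.1 CPM in the controls, 429, 413 and 416 with SNP100, 368, 384 and 383 with SNP50, 539, 535 and 510.3 with MSNP and 439.8, 439 and 428 with HMSNP. It rose with MSNP by 0.43 ± 0.06 (SE, adjusted p = 4.71e-05) and was lower in HMSNP than in MSNP, at -0.28 ± 0.06 (SE, adjusted p = 0.00254), with the HMSNP libraries above every control and below every MSNP library. Its relative Edem2 was not called against Control, with 0.16 ± 0.08 (SE, adjusted p = 0.185) for MSNP, but was lower in HMSNP (52.9, 54.1 and 52.8 CPM) than in MSNP (66.1, 68.0 and 65.1 CPM), at -0.32 ± 0.08 (SE, adjusted p = 0.0109). Os9, a lectin that hands glycoproteins to SEL1L, read 133, 140.5 and 125 CPM in the controls, 141, 134 and 139 with SNP100, 135, 144 and 137 with SNP50, 156, 151 and 151 with MSNP and 139.7, 138 and 136 with HMSNP and rose with MSNP by 0.20 ± 0.06 (SE, adjusted p = 0.023), a call kept in 17 of 23 alternatives and lost without any one MSNP replicate. Derl2 and Selenos, a selenoprotein that binds the Derlins, were not called in any of the 6 comparisons, with values for MSNP of 0.05 ± 0.09 (SE, adjusted p = 0.767) and 0.00 ± 0.12 (SE, adjusted p = 0.992). Derl2 overlaps Mis12 on the other strand.

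**Figure D4:**
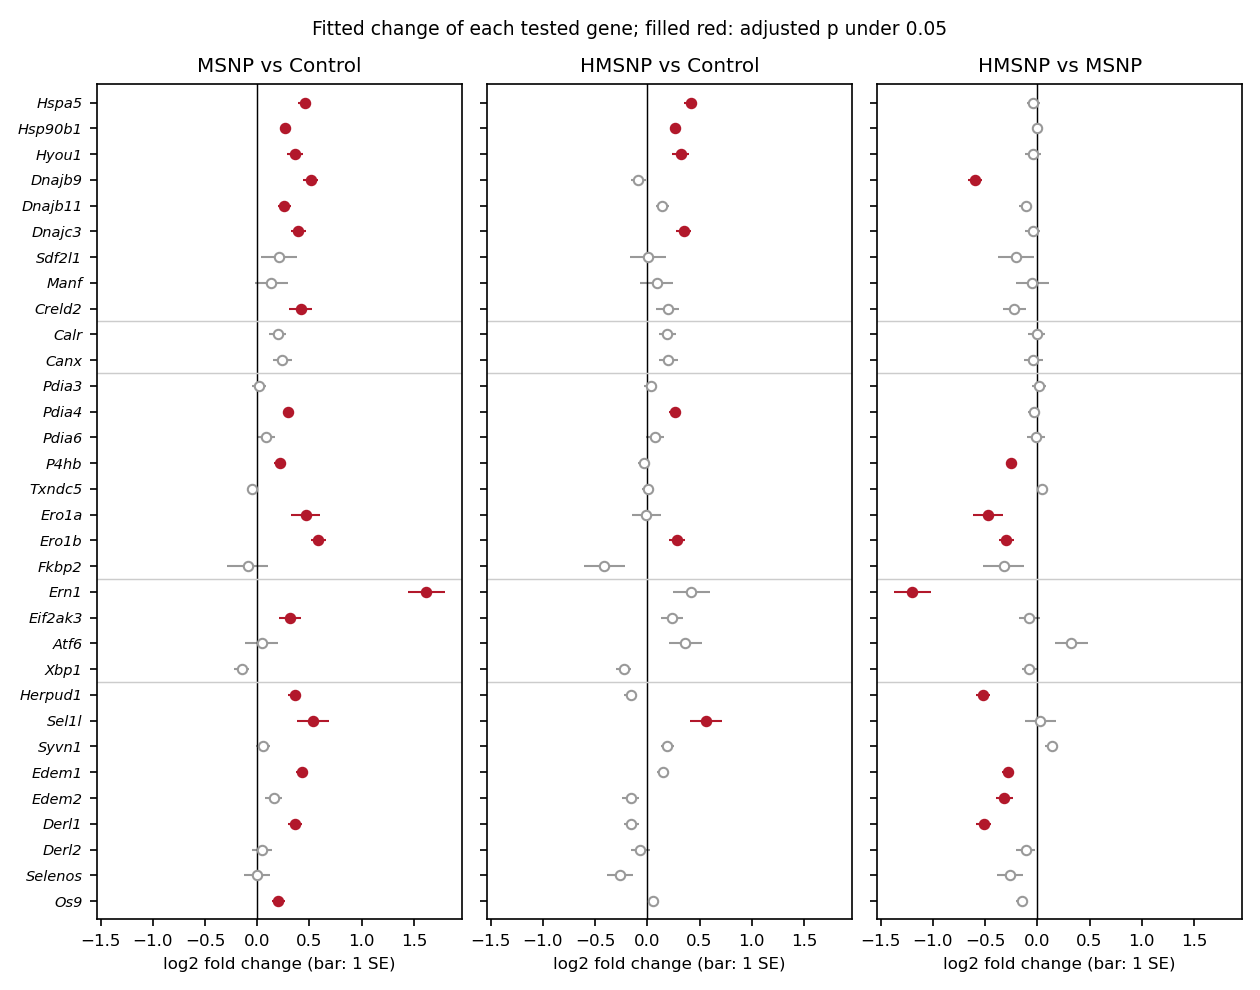
Points are log2 fold changes of the 32 tested ER genes from the model of all 15 libraries, bars are 1 SE, and filled red points have an adjusted p under 0.05. The MSNP panel has 18 red points right of 0, the HMSNP panel 7 right of 0, and the panel of HMSNP against MSNP 9 left of 0.

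The direct comparison of the porous particles, which had the same dose by mass, asked where HMSNP differed from MSNP. HMSNP had 9 of the 32 genes lower than MSNP and 0 higher, while 11.0% of all tested genes, and 17.5% of those with at least 10 CPM, were lower and 9.22% of all were higher. The 9 were Dnajb9, P4hb, Ero1a, Ero1b, Ern1, Herpud1, Edem1, Edem2 and Derl1. The other 10 of the 18 genes that rose with MSNP, with Hspa5, Hsp90b1, Hyou1, Dnajc3, Pdia4 and Sel1l among them, were not called between the 2 particles. For Hsp90b1 the difference was -0.00 ± 0.05 (SE, adjusted p = 0.969) with a 95% interval of -0.11 to 0.10, and for Sel1l it was 0.03 ± 0.15 (SE, adjusted p = 0.942) with an interval of -0.29 to 0.35. Every HMSNP library was above every MSNP library for Atf6, Syvn1 and Txndc5, and Atf6 was at 0.32 ± 0.16 (SE, adjusted p = 0.193). In the 6 libraries alone, 2 ER genes were called higher and 15 lower, where 20.5% and 20.4% of all genes were. With the length offset, 2 were called higher and 12 lower, against 13.5% and 13.6%. All 7 genes that rose with HMSNP were among the 18 that rose with MSNP. Both comparisons use the same control libraries, and the share of all genes with both calls was not counted.

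The element letters can be set beside these calls. Of the 12 tested genes with ERSE or ERSE-II letters, 7 were called higher with MSNP, 5 with HMSNP, and 2 lower in HMSNP than in MSNP (Ero1b and Herpud1). Of the 20 genes without them, 11 were called higher with MSNP, 2 with HMSNP, and 7 lower in HMSNP than in MSNP. The medians for HMSNP against MSNP were -0.04 and -0.17 on the log2 scale. The split is a description of small groups and was not tested.

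MSNP was also set against SNP100, the nonporous particle of the same nominal diameter, at 200 and 50 µg/mL. Of the 32 genes, 15 were higher with MSNP and 0 lower, where 10.4% of all tested genes were higher and 7.53% lower, and 17.2% were higher among those with at least 10 CPM. Ern1 (1.37 ± 0.18 SE, adjusted p = 4.51e-05), Derl1 (0.55 ± 0.07 SE, adjusted p = 4.04e-05) and Ero1a (0.52 ± 0.14 SE, adjusted p = 0.0172) had the largest values. Particle type and dose cannot be told apart here.

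In the groups given nonporous particles, the fitted differences were small. The 95% intervals of the 32 genes lay between -0.53 and 0.63 on the log2 scale with SNP100 and between -0.59 and 0.67 with SNP50. At an unadjusted p under 0.05 there were 3 genes with SNP100 and 5 with SNP50, where 2085 and 2384 of all 19839 tested genes were. DESeq2 called 1 and 0 of the ER genes, where 3.96% and 5.27% of all genes with an adjusted p were called. Without Control replicate 3, 5 genes were called with SNP100 (Dnajb9, Fkbp2, Hspa5, Manf and Sdf2l1, all higher) and 11 with SNP50, 8 higher and 3 lower (Atf6, Canx and Ero1a), where 5.16% and 18.9% of all genes were then called in either direction.

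The counts for the porous particles also moved with single libraries. With MSNP 26 genes were called without Control replicate 3, all higher, where 16.3% of all genes were then called higher, and 7 when only the 6 libraries of the comparison were used, where 7.37% of all genes were then called higher. With HMSNP the count was 15 without Control replicate 2 (12 higher and 3 lower, where 13.3% of all genes were then called higher and 11.9% lower) or Control replicate 3 (14 higher and 1 lower, against 4.47% and 4.2%), 4 without SNP100 replicate 1, SNP50 replicate 3, any one MSNP replicate or HMSNP replicate 3, 3 without HMSNP replicate 1, 2 without HMSNP replicate 2 and 0 in the 6 libraries alone. Where the HMSNP count was 4, 1.32% to 1.88% of all genes were called higher. Where it was 3, 2 and 0, these shares were 1.23%, 1.08% and 0.097%. HMSNP against MSNP gave 17 without Control replicate 3, 16 of them lower and 1 higher, where 18.4% of all genes were then lower and 15.5% higher. The HMSNP calls of Hyou1, Ero1b and Sel1l were kept in 13, 9 and 8 of 23 alternatives. With the length offset, Hspa5 was at 0.29 with MSNP (adjusted p = 0.0465) and 0.26 with HMSNP (adjusted p = 0.133), and Dnajc3 at 0.24 (adjusted p = 0.0191) and 0.19 (adjusted p = 0.108), so that the HMSNP calls of both were lost. With the offset without Control replicate 3, all 7 HMSNP calls were kept among 14 ER genes called higher, where 5.78% of all genes were. MSNP against SNP100 gave 25 without Control replicate 3, where 18.2% of all genes were then higher. It gave 8 without SNP100 replicate 2 (8.15% of all genes higher) and 9 without MSNP replicate 1 (8.09%).

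The ER genes were then set beside a list of 30 genes of ATF4 and CHOP and genes they are known to control, of which 28 were tested. With MSNP, 15 were higher and 3 lower with a median of 0.36, and with HMSNP 1 was higher and 21 lower with a median of -0.85 on the log2 scale. Between HMSNP and MSNP 26 were lower and 1 higher with a median of -1.19. For SNP100 the counts were 3 higher and 4 lower, and for SNP50 2 higher and 9 lower. Of all tested genes, 0.509% were higher and 0.403% lower with SNP100, and 0.454% and 0.958% with SNP50. These shares were 11.8% and 11.0% with MSNP, 2.46% and 2.7% with HMSNP, and 9.22% and 11.0% for HMSNP against MSNP. Without Control replicate 3, the SNP100 group had 3 higher and 11 lower, the SNP50 group 4 higher and 15 lower, the MSNP group 19 higher and 3 lower, and the HMSNP group 1 higher and 23 lower. The shares of all genes called higher and lower were then 2.84% and 2.32% with SNP100, 9.63% and 9.3% with SNP50, 16.3% and 13.2% with MSNP, and 4.47% and 4.2% with HMSNP. In all, 10 genes of this list rose with MSNP and fell with HMSNP. The list was chosen with earlier results of these data known. The share of all genes with both calls was not counted, so this count has no background. In the same model 0 of the ER genes were called lower with HMSNP, where 2.7% of all genes were. Without Control replicate 2, 3 ER genes were called lower with HMSNP, where 11.9% of all genes were. DESeq2 called 1 lower, where 7.93% were.

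Ddit3, the gene of CHOP, read 9.56, 9.28 and 10.3 CPM in the controls, 14.6, 15.6 and 15.5 with SNP100, 17.1, 13.3 and 14.0 with SNP50, 53.2, 48.7 and 51.6 with MSNP and 5.91, 5.60 and 6.42 with HMSNP. It was highest with MSNP, higher than the controls with SNP100 and SNP50 and lowest with HMSNP, with no overlap of any treated group with the controls. It rose 5.26-fold with MSNP (2.39 ± 0.10 SE, adjusted p = 1.38e-10) and fell with HMSNP (-0.70 ± 0.10 SE, adjusted p = 0.000646). Trib3, a pseudokinase target of CHOP, read 17.9, 21.5 and 20.8 CPM in the controls, 14.6, 14.6 and 14.8 with SNP100, 14.7, 14.5 and 13.3 with SNP50, 53.7, 52.2 and 45.8 with MSNP and 3.06, 3.39 and 2.77 with HMSNP. It rose with MSNP (1.33 ± 0.09 SE, adjusted p = 3.16e-08) and fell with HMSNP (-2.71 ± 0.10 SE, adjusted p = 1.53e-09), and it also fell with both nonporous particles. Chac1, which breaks down glutathione, read 7.28, 7.60 and 6.90 CPM in the controls, 5.72, 6.01 and 6.73 with SNP100, 5.57, 5.58 and 5.57 with SNP50, 11.9, 11.3 and 11.0 with MSNP and 0.735, 1.17 and 0.825 with HMSNP. Its HMSNP libraries were far below all the others, and it fell with HMSNP, at -2.99 ± 0.14 (SE, adjusted p = 6.27e-09), and rose by 0.65 ± 0.11 (SE, adjusted p = 0.000375) with MSNP.

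Atf4 itself read 269.9, 276 and 350.1 CPM in the controls, 271, 277 and 285 with SNP100, 281, 252 and 249 with SNP50, 418, 399 and 396 with MSNP and 160.4, 159 and 164 with HMSNP. The MSNP libraries were the highest and the HMSNP libraries the lowest, at log2 fold changes of 0.44 ± 0.09 (SE, adjusted p = 0.00162) and -0.89 ± 0.09 (SE, adjusted p = 2.21e-05). Asns, asparagine synthetase, changed by 0.35 ± 0.07 (SE, adjusted p = 0.00217) and -0.95 ± 0.07 (SE, adjusted p = 1.71e-06). Atf3, a stress factor that other pathways also induce, rose with all 4 particles, by 0.57 ± 0.06 (SE, adjusted p = 0.000683) with SNP100, 0.60 ± 0.06 (SE, adjusted p = 0.000476) with SNP50, 2.48 ± 0.07 (SE, adjusted p = 2.62e-12) with MSNP and 0.86 ± 0.06 (SE, adjusted p = 1.49e-06) with HMSNP. The CARE letters were found in 7 of the 30 promoters of this list (23.3%) and the ERSE letters in 0. The promoters of Chac1 and Atf3 are shown as examples beside those of the ER genes above, with CARE in capitals, read on the other strand.
Chac1, chr2:119181514-119181553, plus strand: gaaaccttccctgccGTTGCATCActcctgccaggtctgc
Atf3, chr1:190915617-190915656, minus strand: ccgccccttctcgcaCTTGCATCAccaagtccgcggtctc

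**Figure D5:**
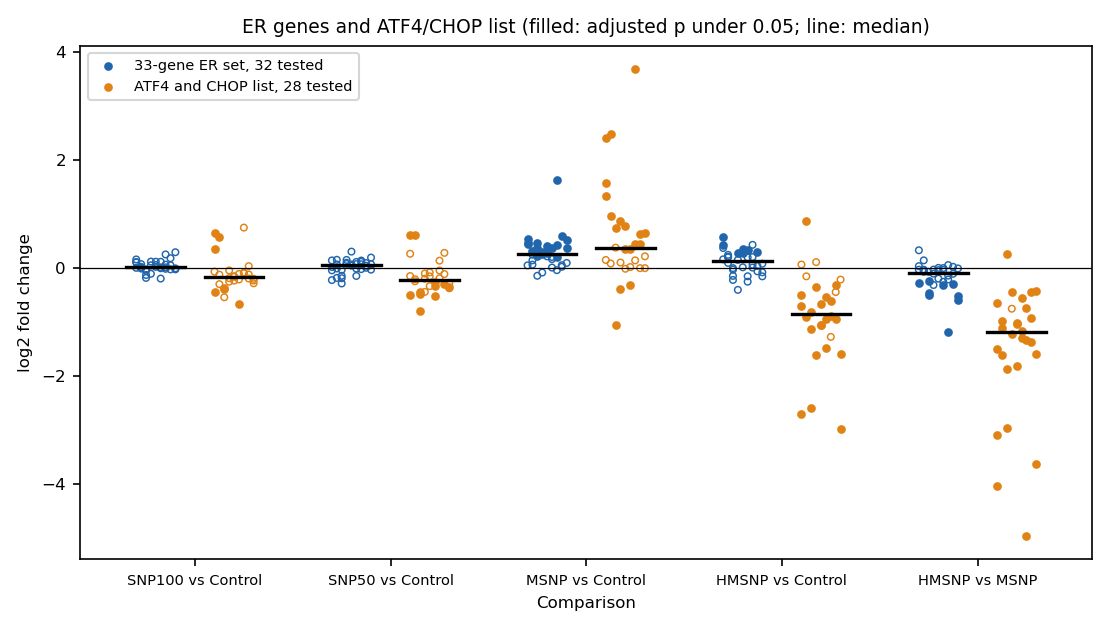
Points are log2 fold changes of the 32 tested ER genes and of 28 tested genes of the ATF4 and CHOP list in 5 comparisons, filled where the adjusted p was under 0.05, with a line at each median. The medians with HMSNP lie at 0.12 for the ER genes and -0.85 for the list, and the highest and lowest points belong to Gdf15, which had 86 counts over all libraries.

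The kinases of eIF2α other than PERK were not called against Control. Eif2ak1 (HRI) differed by -0.02 ± 0.08 (SE, adjusted p = 0.873) with MSNP and 0.04 ± 0.08 (SE, adjusted p = 0.8) with HMSNP. Eif2ak4 (GCN2) differed by 0.37 ± 0.15 (SE, adjusted p = 0.0945) and 0.52 ± 0.15 (SE, adjusted p = 0.0633) and was above every control in both groups. Eif2ak2 (PKR) was higher in HMSNP than in MSNP by 0.55 ± 0.14 (SE, adjusted p = 0.011). Kinase activity is not read by gene counts.

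The remaining genes of ER function were counted in further lists. Their shares are read against those of all genes, at 11.8% higher and 11.0% lower with MSNP and 2.46% and 2.7% with HMSNP. Of 32 genes of translocation, signal peptidase and N-glycosylation, 4 rose with MSNP (12.5%, near the share of all genes), with Spcs3 (0.31 ± 0.05 SE, adjusted p = 0.000605), Sec61a1 (0.24 ± 0.06 SE, adjusted p = 0.00573) and Stt3b (0.40 ± 0.09 SE, adjusted p = 0.00318) among them, and 0 were called with HMSNP. Of 25 tested further folding genes, 1 rose with MSNP, Txndc11 at 0.32 ± 0.06 (SE, adjusted p = 0.00159), and 2 fell, Fkbp14 at -0.93 ± 0.22 (SE, adjusted p = 0.00533) and Cnpy4 at -0.37 ± 0.11 (SE, adjusted p = 0.0225), and 0 were called with HMSNP. These shares, 4.0% higher and 8.0% lower with MSNP, were below those of all genes. The medians of both lists with MSNP were -0.00 and -0.07. Their counts depended on the controls, as without Control replicate 2 the translocation list had 7 genes higher and 7 lower with MSNP and 3 higher and 13 lower with HMSNP, and without Control replicate 3 it had 9 higher with MSNP and 0 called with HMSNP. The folding list had 3 higher and 6 lower with MSNP and 2 higher and 9 lower with HMSNP without Control replicate 2, and 7 higher and 3 lower with MSNP without Control replicate 3. Without Control replicate 2, 16.4% of all genes were called higher and 16.8% lower with MSNP, and 13.3% and 11.9% with HMSNP. Without Control replicate 3 these shares were 16.3% and 13.2% with MSNP, and 4.47% and 4.2% with HMSNP.

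Of 34 further ERAD genes, 6 rose (17.6%) and 4 fell (11.8%) with MSNP, with a median of 0.08, and 1 rose and 1 fell with HMSNP (2.94% each). Set beside 19.6% higher with MSNP among genes of at least 10 CPM, these shares lay near the background. Rnf185, an ER ubiquitin ligase, rose with MSNP (0.78 ± 0.08 SE, adjusted p = 1.55e-06), as did Ubxn4, a VCP adaptor (0.53 ± 0.06 SE, adjusted p = 5.44e-06), and Erlin2 was called with both porous particles, at 0.38 ± 0.09 (SE, adjusted p = 0.00758) and 0.39 ± 0.09 (SE, adjusted p = 0.0237). Erlec1, a lectin of ERAD, fell with both, at -0.27 ± 0.08 (SE, adjusted p = 0.0185) and -0.43 ± 0.08 (SE, adjusted p = 0.00359). The ERAD list had 11 higher and 8 lower with MSNP and 6 higher and 4 lower with HMSNP without Control replicate 2, and 11 higher and 4 lower with MSNP without Control replicate 3. Of all genes, 16.4% were then higher and 16.8% lower with MSNP, and 13.3% and 11.9% with HMSNP, without Control replicate 2. The shares with MSNP were 16.3% and 13.2% without Control replicate 3. Among 18 tested regulators, 4 rose (22.2%) and 3 fell (16.7%) with MSNP. Ptpn1, an ER phosphatase, rose with both, at 1.18 ± 0.07 (SE, adjusted p = 1.35e-08) and 0.42 ± 0.07 (SE, adjusted p = 0.00343), Wfs1 rose with MSNP (1.26 ± 0.14 SE, adjusted p = 5.87e-06), and Creb3l2, an ATF6-like factor of the ER membrane, fell from 34.7 to 59.4 CPM in the controls to 13.1 to 13.9 CPM with MSNP (-1.80 ± 0.15 SE, adjusted p = 3.68e-07).

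Of 21 genes of ER exit and retrieval, 2 rose with MSNP, Sec23b at 0.27 ± 0.07 (SE, adjusted p = 0.0167) and Sec24a at 0.68 ± 0.18 (SE, adjusted p = 0.0142), and 1 fell, Mcfd2 at -0.63 ± 0.09 (SE, adjusted p = 5.98e-05), shares of 9.52% and 4.76% that were below those of all genes. Of 5 messages known to be cleaved by IRE1, 4 were tested. Bloc1s1 read 15.2, 13.7 and 24.3 CPM in the controls and 14.9, 13.0 and 13.0 CPM with MSNP (-0.38 ± 0.16 SE, adjusted p = 0.094). Hgsnat differed by 0.03 ± 0.06 (SE, adjusted p = 0.779). Pdgfrb, at 0.761 to 0.896 CPM in the controls and 0.081 to 0.148 CPM with MSNP, was called lower, and Scara3 had 0 counts and Sparc 11 counts over all libraries.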

How the data were processed

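RNA-seq of 15 libraries was analysed. The authors deposited a table of raw gene counts, made from poly(A) libraries of a directional kit with cutadapt 1.16, STAR 2.7.9a and featureCounts 1.6.3 per the labels. Of 57186 listed genes, 556 identifiers were not in GENCODE vM39, which supplied symbols, coordinates and lengths. Genes with a summed count of at least 10 were fitted in one edgeR 4.0.16 quasi-likelihood model of the 5 groups (R 4.3.3, TMM factors), with Benjamini-Hochberg adjustment over all 19839 genes and a threshold of 0.05. SE is the size of the log2 fold change divided by the square root of F, and CPM values are TMM-scaled except those of the summed markers. On simulated counts for MSNP against Control with 19494 genes, 195 of 200 genes changed 2-fold were called (97.5%), with 3 unchanged genes called. The simulated libraries had neither the length trend nor the extra spread of the controls. These rates therefore check the code and do not apply to the calls reported here, most of which are below 2-fold. Counting error is smallest for ER genes with many counts, such as Hspa5 with 853068 over all libraries. It weighs more for those with few, such as Dnajb9 with 11094, and it was not separated from replicate spread.

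Every ER gene is accounted for, with all libraries printed for those called against Control. From the ATF4 and CHOP list 6 genes and the other eIF2α kinases are named, and from each remaining list at most the 3 genes with the smallest p for MSNP and for HMSNP against Control. The members and lists were chosen with earlier results of these data known. The alternatives were DESeq2 1.42.0, RLE factors, filterByExpr, no filter, the 6 libraries of a comparison alone, a replicate block, an offset for a lowess trend (span 0.3) on canonical transcript length, the same without Control replicate 3, and leaving out each library in turn.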

Additional observations from a re-analysis of the deposited data

How the results depend on the processing

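The number of ER genes called moved with the setting in every comparison, and so did the share of all genes with an adjusted p that were called, given here in parentheses. For SNP100 against Control it was 0 in the model of all libraries (0.912%), 1 with DESeq2 (3.96%), filterByExpr (1.85%) or the length offset (2.71%), 8 with the offset without Control replicate 3 (6.25%), and 0 to 5 when single libraries were left out (0.29% to 5.16%). For SNP50 it was 0 (1.41%), then 3 with the offset (4.7%), 14 with the offset without Control replicate 3 (15.6%), and 0 to 11 on leaving out single libraries (0.443% to 18.9%). For MSNP it was 18 (22.8%), then 7 in the 6 libraries alone (13.0%) and 14 to 26 on leaving out single libraries (17.4% to 33.2%). For HMSNP it was 7 (5.16%), then 11 with DESeq2 (15.1%), 0 in the 6 libraries alone (0.439%), 16 with the offset without Control replicate 3 (11.3%) and 2 to 15 on leaving out single libraries (2.51% to 25.2%). For HMSNP against MSNP it was 9 (20.2%), then 17 in the 6 libraries alone (40.9%), 14 with the offset (27.0%), 16 with the offset without Control replicate 3 (36.3%) and 7 to 17 on leaving out single libraries (16.1% to 33.9%). For MSNP against SNP100 it was 15 (17.9%), then 25 in the 6 libraries alone (40.9%), 25 with the offset without Control replicate 3 (34.5%) and 8 to 25 on leaving out single libraries (13.4% to 33.1%).

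Deviations of same-numbered libraries correlated at -0.517 to 0.573 over 30 pairs (median 0.0156). Those of other-numbered libraries correlated at -0.758 to 0.716 over 60 pairs (median -0.0148), so replicate numbers gave no sign of pairing. With the replicate block the counts were 0, 0, 18, 7, 9 and 13 in the same order. Of the values for single genes, 12 changed sign with a call. Without Control replicate 3, Fkbp2 became 0.29 with SNP100 and 0.32 with MSNP, Bloc1s1 became 0.28 with SNP100, and Sec61b, Ssr4 and Sec24b became 0.33, 0.24 and -0.23 with SNP50. With the length offset, Fkbp2 became 0.26 and Atf6 -0.14 with MSNP. With the offset without Control replicate 3, Fkbp2 became 0.35 and Atf6 -0.16 with MSNP, and Derl2 became 0.20 and Ssr4 0.27 with SNP50. Without Control replicate 2, the lowest of the ranges over single libraries were -0.32 and -0.30 for Fkbp2 with SNP100 and MSNP, -0.17 for Bloc1s1 with SNP100, and -0.18 and -0.21 for Sec61b and Ssr4 with SNP50, and the highest was 0.21 for Sec24b with SNP50. The remaining single-gene values kept their direction or were not called, with 375 gaining and 235 losing a call. The cause was not tested.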
